A study of Mus musculus with 3 samples.

Results

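The genes described here encode 6 receptor-type protein tyrosine phosphatases (Ptprd, Ptprs, Ptprf, Ptprt, Ptprm and Ptprg) and 3 postsynaptic adhesion proteins (Il1rapl1, Il1rapl2 and Lrfn5). They were chosen by name, and each was represented by the 10 kb bins of the deposited table that overlap its RefSeq gene body on GRCm38. All 9 genes were found, among 21672 protein-coding genes with a measured bin, and they covered 800 of the 264399 bins in the table. The measurement was 5-hydroxymethylcytosine (5hmC) in genomic DNA of mouse cerebellum tissue, given as 1 level per bin and library in percent. Of the 3 libraries, 1 was control tissue read by DDD-seq, 1 was tissue after chronic sleep deprivation read by DDD-seq, and 1 was tissue read by ACE-seq, whose treatment is also labelled as control. In DDD-seq the 5hmC in the DNA is glycosylated, the deaminase SsdAcat then converts unprotected cytosines, and cytosines still read as cytosine stand for 5hmC. ACE-seq rests on the same idea and is usually run with an APOBEC enzyme, but the labels give its library the same SsdAcat text. The sources used here do not give strain, age, sex, the number of animals or the length of the deprivation. In the table's header all 3 columns are marked merged and the DDD-seq ones also all, and whether any of them pools several runs or animals is not stated there. No expression values were used, so the tissue label was not checked against marker genes.

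Each group has a single library, so no p-value is given and no difference can be set against the spread between animals. The ± values are standard errors (SE) over the bins of a gene, so they describe how even a gene is along its length and not how animals differ. Values given as 3 in a row are in the order DDD-seq control, sleep-deprived DDD-seq, ACE-seq. The depth behind a bin is unknown, because the table gives no read counts. In whole tissue, a larger share of cells carrying 5hmC at a gene and a higher level in each of those cells cannot be told apart.

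5hmC is made from 5-methylcytosine by the TET dioxygenases and is abundant in neurons, where it is found mainly over the bodies of expressed genes. PTPRD, PTPRS and PTPRF (also called LAR) form the type IIa receptor phosphatases, presynaptic adhesion receptors that organise the release site through liprin-alpha proteins. IL1RAPL1, the product of an X-linked intellectual disability gene, binds PTPRD across the synaptic cleft, and LRFN5 (SALM5) binds the type IIa phosphatases in the same way. IL1RAPL2 is the close paralogue of IL1RAPL1. PTPRT and PTPRM belong to the type IIb phosphatases, which adhere to like molecules on neighbouring cells, and PTPRG is a type V phosphatase that binds contactins through its carbonic anhydrase-like domain.

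The stretch around the start of a gene was examined first, because cytosines followed by guanine (CG, which reads the same on both strands) are the main sites of methylation and hydroxymethylation. RefSeq promoter sequences of GRCm38.p6, which run from 250 bases before to 50 bases after a start, were matched for 8 of the 9 genes. Shown here are 2 CG-rich promoters of phosphatase genes, Ptprt and Ptprg, beside those of the paralogues Il1rapl1 and Il1rapl2. Each is written 5′ to 3′ on the gene's strand with every CG in capitals. They lie at chr2:162661098-162661397 (minus strand), chr14:11553303-11553602 (plus), chrX:88115899-88116198 (minus) and chrX:137570504-137570803 (plus).
Ptprt: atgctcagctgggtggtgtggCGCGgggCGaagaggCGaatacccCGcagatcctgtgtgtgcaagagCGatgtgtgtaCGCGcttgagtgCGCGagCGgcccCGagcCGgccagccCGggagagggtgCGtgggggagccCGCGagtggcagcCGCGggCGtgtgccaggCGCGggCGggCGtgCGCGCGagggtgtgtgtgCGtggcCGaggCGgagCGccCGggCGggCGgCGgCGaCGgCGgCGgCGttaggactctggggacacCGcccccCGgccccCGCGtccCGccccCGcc
Ptprg: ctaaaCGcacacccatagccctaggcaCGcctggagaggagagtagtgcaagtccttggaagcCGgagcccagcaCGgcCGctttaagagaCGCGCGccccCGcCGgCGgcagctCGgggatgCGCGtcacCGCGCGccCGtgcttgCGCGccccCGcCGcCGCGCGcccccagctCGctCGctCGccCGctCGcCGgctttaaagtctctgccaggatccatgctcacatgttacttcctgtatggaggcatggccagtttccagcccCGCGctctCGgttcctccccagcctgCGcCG
Il1rapl1: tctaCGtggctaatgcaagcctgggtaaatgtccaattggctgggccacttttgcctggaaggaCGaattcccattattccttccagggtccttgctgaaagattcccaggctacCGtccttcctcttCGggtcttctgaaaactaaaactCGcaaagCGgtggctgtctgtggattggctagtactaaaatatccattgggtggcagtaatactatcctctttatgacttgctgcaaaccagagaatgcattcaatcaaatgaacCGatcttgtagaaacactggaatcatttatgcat
Il1rapl2: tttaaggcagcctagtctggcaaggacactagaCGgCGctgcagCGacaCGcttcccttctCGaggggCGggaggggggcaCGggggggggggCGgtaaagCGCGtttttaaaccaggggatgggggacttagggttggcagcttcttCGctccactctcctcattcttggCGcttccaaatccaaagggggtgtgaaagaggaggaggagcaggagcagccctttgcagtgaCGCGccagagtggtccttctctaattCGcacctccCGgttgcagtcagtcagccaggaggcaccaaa

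The promoters of the phosphatase genes Ptprt, Ptprm, Ptprg and Ptprf held 46, 43, 36 and 30 CG in 300 bases, and that of Lrfn5 held 32. The Ptprt count was reached by 1.65% of the 32851 promoters of this length, and 30 CG by 11.7%. Ptprs held 21 CG and Il1rapl2 16. Il1rapl1 stood at the other end with 7 CG, the median of all promoters, and a G and C content of 45%, against 60.3% for Il1rapl2 and 77.3% for Ptprt.

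The bin that holds the start differed between these genes. At Ptprt it had a level of 0.758%, 1.29% and 1.01%, or 0.419, 0.709 and 0.583 times the mean of the gene body. At Ptprg the start bin stood at 0.545, 0.704 and 0.708 times the body mean, and at Ptprm and Lrfn5 it was likewise below the body mean in all 3 libraries. At Ptprf the ratio was 0.938, 1.22 and 0.915, at Ptprs 1.006, 0.727 and 0.794, and at Il1rapl2 1.18, 0.391 and 1.59, so none of these was below the body mean in every library. The start bin of Il1rapl1 had 3.14%, 2.71% and 3.82%, or 1.04, 0.833 and 1.23 times its body mean, so this gene too had no dip at its start that all libraries share. Among 826 genes of at least 20 bins with a promoter sequence, the start bin was below the body mean in all 3 libraries for 55.7%. The share was 70.3% of the 209 genes with at least 30 CG and 37% of the 254 genes with at most 10 CG. Each start bin is a single value, and the promoter itself fills only a small part of it.

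The gene-body levels spanned a wide range (the plot of gene-body and flanking levels). In the DDD-seq control, Il1rapl1 was highest with 3.01% ± 0.15 over 138 bins. Ptprg followed with 2.21% ± 0.086 over 70 bins, and Ptprd with 2.16% ± 0.093 over 228 bins. The type IIb genes stood in the middle, Ptprt with 1.81% ± 0.063 (115 bins) and Ptprm with 1.60% ± 0.049 (70 bins). At the lower end Lrfn5 had 1.49% ± 0.12 (34 bins), Ptprs 1.40% ± 0.056 (7 bins), Il1rapl2 1.32% ± 0.080 (128 bins) and Ptprf 1.31% ± 0.059 (10 bins). The median of the 9 was 1.60%, beside 1.54% over all 6664 genes of at least 5 bins. The 7 of them with at least 20 bins had a median of 1.81%, that of Ptprt, beside 1.74% over the 1091 genes of that size. Of the 9 genes, 5, 5 and 6 were above the median of all genes in the 3 libraries. As a group the 9 genes thus had a median close to that of all genes, and single genes lay at both ends.

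**Figure D1:**
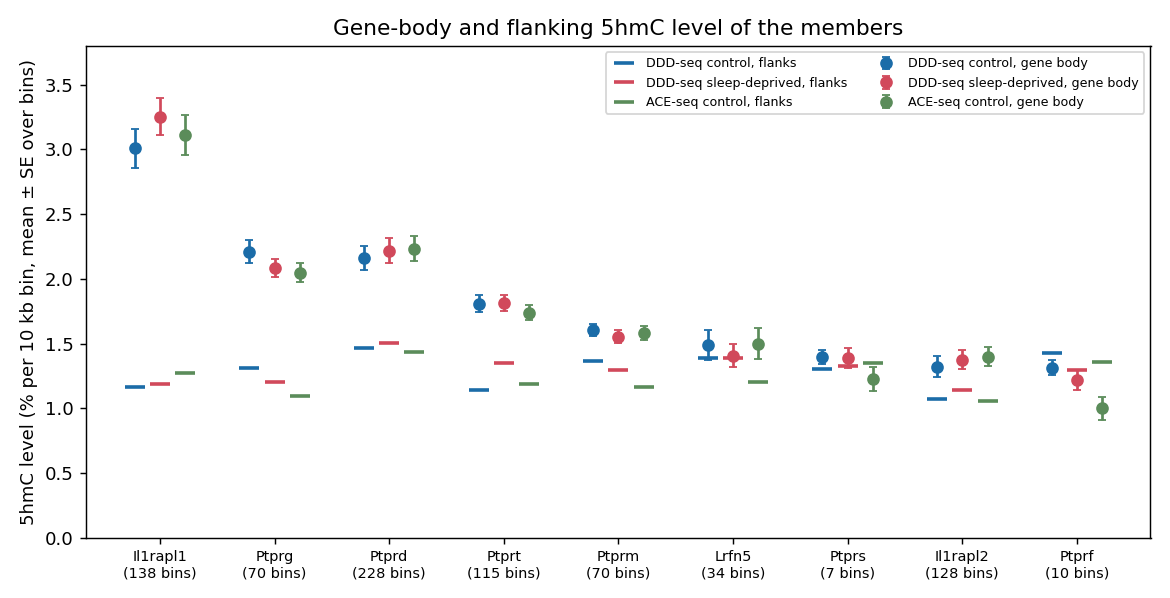
Gene-body 5hmC level (points, mean ± SE over 10 kb bins, in percent) and mean level of the 100 kb flanks on both sides (bars) for each gene in the 3 libraries, ordered by the DDD-seq control. Il1rapl1 lies between 3.01% and 3.25% over flanks of 1.17% to 1.27%. The body of Ptprf lies below the mean of its flanks in each library, but its flanks are unlike each other.

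Neighbours in this order were compared by their difference and its SE over bins. In the DDD-seq control Il1rapl1 exceeded Ptprg by 0.80 ± 0.17 points, Ptprd exceeded Ptprt by 0.35 ± 0.11 and Ptprt exceeded Ptprm by 0.20 ± 0.080. Ptprg and Ptprd were 0.051 ± 0.13 points apart, and in the other libraries their order was turned, where Ptprg minus Ptprd was -0.13 ± 0.12 with sleep deprivation and -0.18 ± 0.12 by ACE-seq. The place of Ptprd depended on the use of means. By medians over bins it had 1.76%, 1.77% and 1.72%, close to Ptprt with 1.71%, 1.74% and 1.69%. Ptprg, with medians of 2.06%, 2.06% and 2.05%, was then above Ptprd in each library. From Ptprm downward, each pair of neighbours lay within 2 SE of each other in both DDD-seq libraries. In the ACE-seq library Il1rapl2 exceeded Ptprf by 0.40 ± 0.12 points, and Ptprt and Ptprm were 0.16 ± 0.078 apart.

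The level of a gene was next set against the 100 kb on either side of it within the same library. A body level of at least 1.5 times the flanking level was found for 3 of the 9 genes in the DDD-seq control, where 17.8% of all genes of at least 5 bins passed. With sleep deprivation 2 of 9 passed (16.7% of all genes), and by ACE-seq 3 of 9 (18.3%). Among genes of at least 20 bins the counts were 3, 2 and 3 of 7, beside 25.6%, 24.9% and 27.1%. Il1rapl1 and Ptprg passed in all 3 libraries. With other flank widths Ptprg fell just short in the DDD-seq control, at 1.49 with 50 kb and 1.45 with 200 kb. Ptprt passed in the DDD-seq control alone (1.59, beside 1.35 and 1.46), and Ptprd in the ACE-seq library alone (1.55, beside 1.47 and 1.48), so both lay close to the threshold. Counts of this size over 9 genes are not set apart from the background.

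Among the type IIa phosphatases, Ptprd had its highest 5hmC levels in one part of the gene. Ptprd (chromosome 4, 75941237 to 78211742) is the longest of the 9 genes, with 2271 kb and 52 RefSeq transcripts, and it overlaps no other protein-coding gene. Its body level was 2.16%, 2.22% and 2.23%, over flanks of 1.47%, 1.50% and 1.44%. The body was divided into 10 equal segments by coordinate. No promoter was matched for Ptprd, so its segments are not ordered from the start of the gene. Segment 1 had 3.43%, 3.56% and 3.65%. Segment 2 (76170001 to 76400000) was the highest in each library, with 4.69% ± 0.30, 4.95% ± 0.32 and 5.13% ± 0.29 over 23 bins. From segment 5 to segment 10 the levels lay between 1.39% and 1.68% in the DDD-seq control, which is near the flanks.

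This unevenness was larger than in most genes of like size. The highest segment of Ptprd was 3.37, 3.45 and 3.88 times its lowest. Of 161 genes of at least 60 bins, 28.6%, 29.8% and 26.7% reached a ratio of 2, and the ratio of Ptprd in the DDD-seq control was above that of 96.9% of them. With 5 segments the ratio was 2.74, 2.79 and 3.23, where 8.7%, 7.45% and 6.21% of genes reached 2. The division into segments was chosen after the values had been seen.

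The high part of Ptprd ended inside the gene (the profiles along 3 long genes). Bins of at least 3% in all 3 libraries numbered 34 of 228 at Ptprd, or 14.9%, beside 5.29% of all bins over protein-coding genes. Of these, 28 lay in an interval of 32 bins, chr4:76130001-76450000, which begins 190 kb and ends 510 kb from the low-coordinate end of the gene. The interval was set from these values, so its level is a description: 4.66% ± 0.26, 4.86% ± 0.29 and 4.95% ± 0.24, which is 3.18, 3.23 and 3.44 times the flanks. The 19 bins below it had 3.09%, 3.16% and 3.48%. The 177 bins above it, which make up 77.6% of the gene, had 1.61%, 1.64% and 1.61%, or 1.097, 1.09 and 1.12 times the flanks. Within the body, the bin with the highest value in the library where it was lowest was 76140001 to 76150000, with 8.28%, 9.25% and 6.96%. The body mean of Ptprd therefore describes neither part well: its median over bins was 1.76%, 1.77% and 1.72%.

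**Figure D2:**
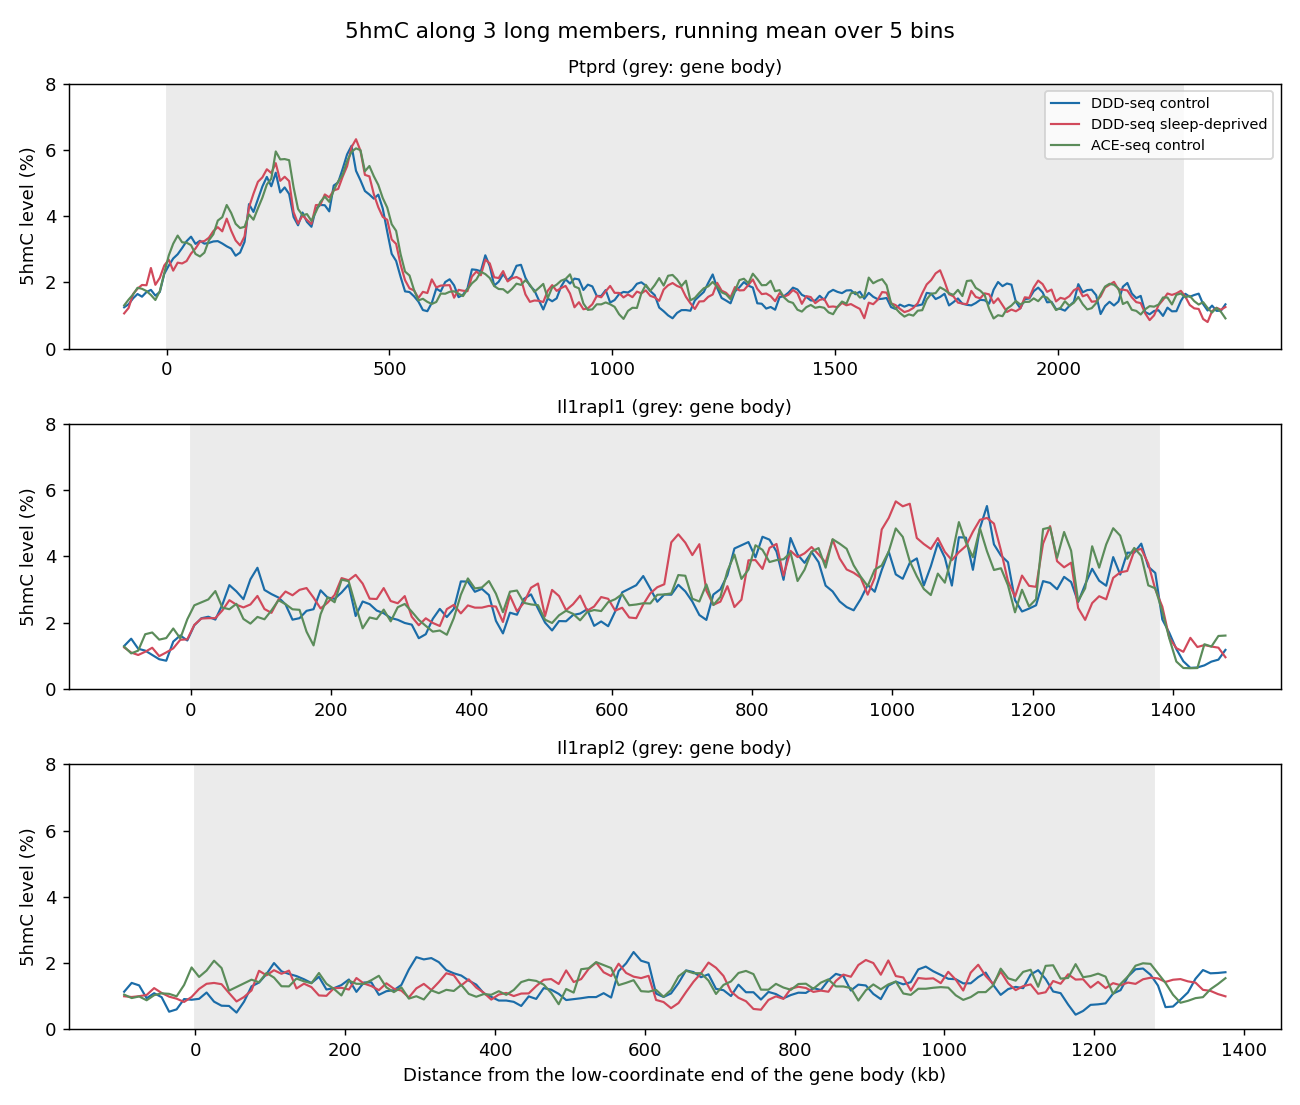
Running mean over 5 bins of the 5hmC level (percent) along Ptprd, Il1rapl1 and Il1rapl2, against the distance in kb from the low-coordinate end of the gene body (grey), with 100 kb flanks, in the 3 libraries. In Ptprd the 3 lines rise together over the 510 kb at the low-coordinate end and fall toward the flanks beyond it. Segment 4 of 10 (76630001 to 76860000) still has 2.08%, 1.94% and 1.98%. In Il1rapl1 they lie above the flanks over nearly the whole body, and in Il1rapl2 they stay low throughout.

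The other type IIa genes, Ptprs and Ptprf, are short, with 7 and 10 bins, and could not hold an interval of 32 bins like that of Ptprd. Ptprs (chromosome 17, 56412426 to 56476561) had 1.40%, 1.39% and 1.23% over flanks of 1.30%, 1.33% and 1.35%. Its 7 bins ranged from 1.26% to 1.71% in the DDD-seq control. Ptprf (chromosome 4, 118208213 to 118291405) had 1.31%, 1.22% and 0.999%, over flanks of 1.43%, 1.30% and 1.36%, so that its body was 0.919, 0.943 and 0.735 times its flanks. No bin of either gene reached 3% in all 3 libraries, beside 5.29% of all bins over protein-coding genes. With so few bins, finding none is close to that share. Ptprd exceeded Ptprs by 0.76 ± 0.11, 0.83 ± 0.12 and 1.01 ± 0.13 points, and Ptprf by 0.85 ± 0.11, 1.0 ± 0.12 and 1.24 ± 0.13 points. Outside its high interval and the bins below it, Ptprd was closer to the levels of these 2 genes.

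The type IIb phosphatase genes were comparatively even along their length. Ptprt (chromosome 2, 161521988 to 162661147) had 1.81%, 1.81% and 1.74% in the 3 libraries, over flanks of 1.14%, 1.35% and 1.19%. Ptprm (chromosome 17, 66666848 to 67354491) had 1.60%, 1.55% and 1.58%, over flanks of 1.37%, 1.29% and 1.17%. The highest of the 10 segments of Ptprt was 1.45, 1.40 and 1.34 times the lowest. The same ratio of Ptprm was 1.31, 1.41 and 1.37, in the DDD-seq control smaller than in all but 4.35% of genes of at least 60 bins. It was 1.48, 1.64 and 1.69 at the type V gene Ptprg, which in the DDD-seq control was nearly as even as Ptprt. Ptprt exceeded Ptprm by 0.20 ± 0.080, 0.26 ± 0.077 and 0.16 ± 0.078 points. The bin of Ptprt from 161860001 to 161870000 had 4.30%, 5.22% and 2.88%.

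Ptprg, the type V gene (chromosome 14, 11553440 to 12242041), stood well above its surroundings. It had 2.21%, 2.09% and 2.05% in the 3 libraries over flanks of 1.31%, 1.21% and 1.095%, or 1.69, 1.73 and 1.87 times the flanks. It is transcribed toward higher coordinates, and from its start to its midpoint it had 2.45%, 2.37% and 2.26%, against 1.98%, 1.80% and 1.83% from there to its end. Start and end sides were not compared over all genes. Among the other phosphatase genes, the start side was the higher one in each library at Ptprm and the lower one at Ptprs. At Ptprt and Ptprf, and at the ligand gene Lrfn5, the direction varied between libraries. Only 4 of its 70 bins, 5.71%, reached 3% in all 3 libraries, close to the 5.29% of all genic bins, so its level came from many bins of moderate height.

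The ligand genes differed most among themselves. Il1rapl1 (chromosome X, 86740937 to 88115948) had 3.01%, 3.25% and 3.11%, over flanks of 1.17%, 1.19% and 1.27%. The body was 2.58, 2.74 and 2.45 times its flanks, more than in 98.4%, 98.9% and 97.9% of all genes of at least 5 bins. Bins of at least 3% in all 3 libraries made up 23 of its 138 bins, or 16.7%. Their longest runs held 2 bins, against 8 at Ptprd, and most of them lay from 87450001 upward, on the side of the gene's start. The gene is transcribed toward lower coordinates, and from its start to its midpoint it had 3.55%, 3.89% and 3.75%, against 2.47%, 2.61% and 2.47% from there to its end. Segment 8 of 10 by coordinate was the highest in each library, with 3.87% ± 0.60, 4.62% ± 0.51 and 4.11% ± 0.58.

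Il1rapl2 (chromosome X, 137570754 to 138849077) is nearly as long as its paralogue and had a far lower level in each library. It had 1.32%, 1.38% and 1.40%, over flanks of 1.07%, 1.14% and 1.06%. Il1rapl1 exceeded it by 1.69 ± 0.17, 1.88 ± 0.16 and 1.71 ± 0.17 points, or 2.28, 2.37 and 2.23 times. None of the 128 bins of Il1rapl2 reached 3% in all 3 libraries, beside 5.29% of all bins over protein-coding genes. On either side of its midpoint it was alike, with 1.31% and 1.33% in the DDD-seq control. A value of 0 was listed for 15, 6 and 7 of its bins, beside 2, 0 and 3 of the bins of Il1rapl1 and none in the 7 autosomal genes. The mean over chromosome X was 1.46%, 1.47% and 1.44%, and Il1rapl1 lay above it. Il1rapl2 lay below that mean, but by ACE-seq within its SE (1.40% ± 0.075). Without bins listed at 0, Il1rapl2 had 1.50%, 1.44% and 1.48%. The chromosome mean includes bins listed at 0, so it cannot be set against these values. The nested gene Tex13a is the one other protein-coding gene that overlaps any of the 9 bodies.

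Lrfn5 (chromosome 12, 61522851 to 61857928) was close to its surroundings, with 1.49%, 1.41% and 1.50% over flanks of 1.39%, 1.39% and 1.1999%. The flanks were unlike each other: 1.17%, 1.30% and 0.964% on the side of its start, and 1.61%, 1.48% and 1.43% beyond its end. Its single bins ranged from 0.473% to 3.73% in the DDD-seq control. None of its 34 bins reached 3% in all 3 libraries, beside 5.29% of all bins over protein-coding genes.

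**Figure D3:**
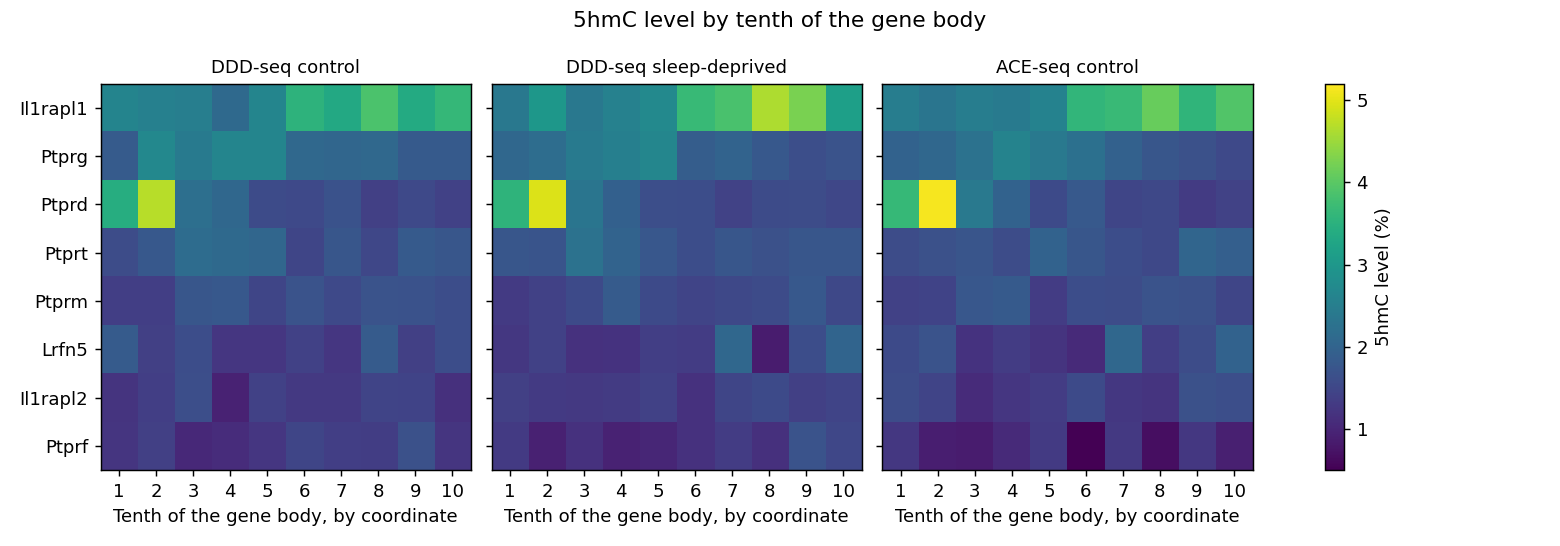
5hmC level (colour, percent) in 10 equal segments of the gene body by coordinate for the 8 genes of at least 10 bins, in the 3 libraries, with rows in the order of the DDD-seq control. Segment 2 of Ptprd (4.69% to 5.13%) is its highest in each library, followed by segment 1 (3.43% to 3.65%). The last 5 segments of Il1rapl1 are above its first 5 in each library. For segment 10 with sleep deprivation the gap is small (3.16%, beside 2.99% in segment 2).

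How far the pattern inside a gene recurred from library to library was described in 2 ways. The highest 10% of the bins of each gene in the DDD-seq control were followed in the other libraries. At Ptprd these 23 bins had 5.38% in the library that picked them, and 5.22% and 5.44% in the others, against 1.88% and 1.87% in its other bins. At Il1rapl1 the 14 bins had 6.73%, but 4.196% and 4.56% in the other libraries, where the remaining bins had 3.15% and 2.95%. At Ptprm 7 bins with 2.38% had 2.34% and 2.10%, beside 1.47% and 1.53% in the rest. At Ptprg 7 bins with 3.73% had 2.87% and 2.69%, beside 2.0% and 1.98% in the rest, and at Ptprt 12 bins with 3.33% had 2.41% and 2.34%, beside 1.74% and 1.67%. At Il1rapl2 13 bins with 2.96% had 1.83% and 1.48%, beside 1.32% and 1.39%, and at Lrfn5 3 bins with 3.09% had 1.16% and 1.50%, beside 1.43% and 1.50%. The high bins of Ptprd thus kept their level, and those of Ptprm nearly so, in libraries that had no part in picking them, whereas those of Il1rapl2 and Lrfn5 largely did not.

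Rank correlations between libraries over the bins of a gene gave a similar picture, with Ptprd, Ptprg and Ptprm at the upper end. Spearman's rho of the DDD-seq control with the sleep-deprived and ACE-seq libraries was 0.591 and 0.562 at Ptprd (228 bins), 0.605 and 0.490 at Ptprg (70 bins), 0.563 and 0.478 at Ptprm (70 bins) and 0.309 and 0.389 at Ptprt (115 bins). It was 0.342 and 0.374 at Il1rapl1 (138 bins), 0.237 and 0.159 at Il1rapl2 (128 bins) and -0.332 and 0.151 at Lrfn5 (34 bins). Ptprs and Ptprf have too few bins for such a description. Bins of a gene share their library, unknown depth and base composition, and these values are descriptions. The same one of 10 segments was highest in all 3 libraries for 3 of the 6 genes of at least 60 bins (Ptprd, Ptprm and Il1rapl1), beside 36% of all 161 genes of that size. With 5 segments it was again 3 of 6 (Ptprd, Ptprg and Ptprm), beside 56.5%.

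Chronic sleep deprivation was compared with control tissue within DDD-seq. No gene of the 9 was 1.1-fold higher or lower, where 15.8% of all genes of at least 5 bins were higher and 16.9% lower by that much. With genes of at least 20 bins the background was 5.41% and 4.77%, and 7 of the 9 genes are of that size. Il1rapl1 had the largest difference (deprived minus control), 0.24 ± 0.16 points, and was higher in 75 and lower in 62 of its bins. Ptprg differed by -0.12 ± 0.064 points, with 40 of 70 bins lower. Among the others Ptprf differed by -0.092 ± 0.070, Lrfn5 by -0.082 ± 0.16 and Ptprm by -0.051 ± 0.041. The difference was 0.057 ± 0.058 points for Ptprd, 0.054 ± 0.090 for Il1rapl2, 0.0044 ± 0.066 for Ptprt and -0.0067 ± 0.092 for Ptprs. Each of these lay within 2 SE over bins. In the high interval of Ptprd the difference was 0.20 ± 0.19 points, with 21 of 32 bins higher.

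**Figure D4:**
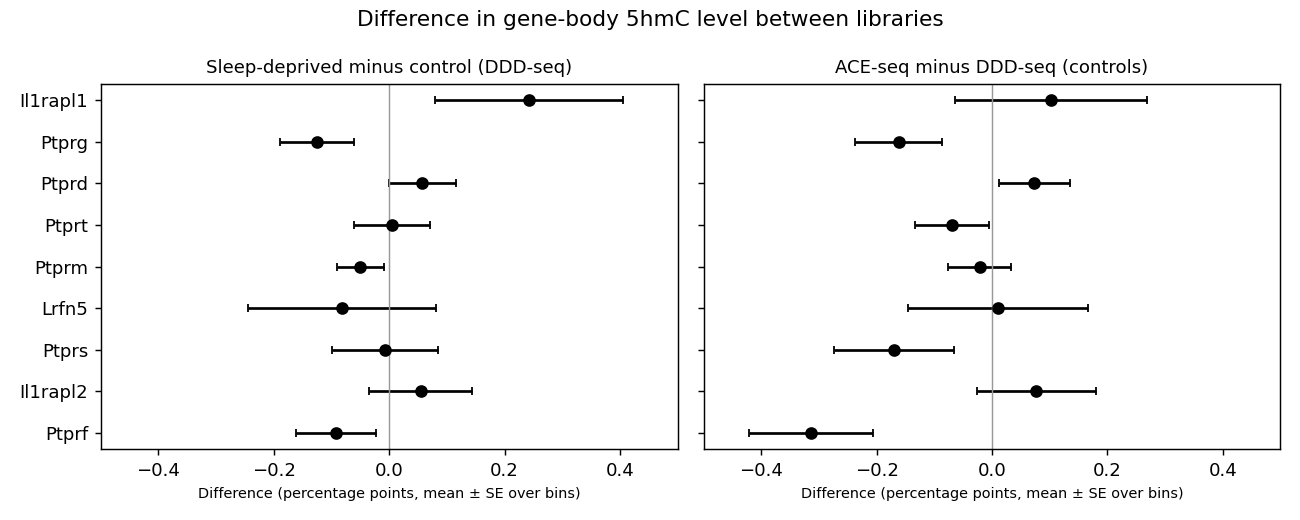
Difference in gene-body 5hmC level (percentage points, mean over paired 10 kb bins ± SE over bins) for the sleep-deprived minus the control DDD-seq library (left) and the ACE-seq minus the DDD-seq control library (right). Both panels use the same DDD-seq control; Il1rapl1 lies furthest up on the left (0.24) and Ptprf furthest down on the right (-0.31).

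ACE-seq was then set against DDD-seq in control tissue. This comparison shares its DDD-seq control with the one above, so that an unusual value in that library enters both. Of the 9 genes, 2 were lower by at least 1.1-fold in the ACE-seq library, where 25.6% of all genes of at least 5 bins were, and 0 were higher (13.2% of all genes). Among genes of at least 20 bins 0 of 7 passed either way, beside 12.9% lower and 2.57% higher. The 2 were the short type IIa genes. Ptprf differed by -0.31 ± 0.11 points, with 8 of 10 bins lower, and Ptprs by -0.17 ± 0.10, with 6 of 7 bins lower. Ptprf had 1.31% by DDD-seq, with bins from 1.05% to 1.67%, and 0.999% by ACE-seq, with bins from 0.496% to 1.30%, so the bins overlapped. Ptprg differed by -0.16 ± 0.075 points, with 44 of 70 bins lower, and Ptprt by -0.070 ± 0.064. The difference was 0.10 ± 0.17 points for Il1rapl1, 0.077 ± 0.10 for Il1rapl2, 0.073 ± 0.061 for Ptprd, 0.010 ± 0.16 for Lrfn5 and -0.022 ± 0.054 for Ptprm. The median difference was -0.022 points over the 9 genes and -0.046 points over all genes of at least 5 bins. After each library was scaled to its mean over autosomes, Ptprf still differed by -0.28 points (1.28-fold lower) and Ptprs by -0.13.

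Genes related to these were described from 4 lists, named after roles assigned to their products. Of 15 other receptor phosphatase genes, 13 had at least 5 bins, with a median of 1.84%, 1.78% and 1.71%, and 10 were above the median of all genes in each. The highest was Ptprr with 2.87% ± 0.21, and the lowest Ptprh with 1.03% ± 0.076. Among the long ones, Ptprk had 2.35% and Ptprn2 1.75% over 80 bins, with Ptpro at 1.54% and Ptprq, a gene of hair cells of the inner ear, at 1.31%. At least 1.5 times the flanks was reached by 4, 3 and 3 of the 13, beside 17.8%, 16.7% and 18.3% of all genes of at least 5 bins.

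Of 14 other genes listed as ligands of the type IIa phosphatases, only 4 had at least 5 bins, since the Slitrk genes and most Lrfn genes are short. The list was drawn up by name, and whether each product is a postsynaptic ligand was not checked. Ntrk3, encoding the neurotrophin-3 receptor TrkC, was the highest with 2.44% ± 0.16, 2.47% and 2.35%, and Lrfn2 the lowest with 1.22%, 1.28% and 1.27%. Gpc4, a glypican gene, had 1.88%, and Il1rap, the relative of Il1rapl1 that encodes the interleukin-1 receptor accessory protein, 1.55%. None of the 4 reached the 3.01% of Il1rapl1.

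The genes of intracellular partners had a median of 1.99%, 1.85% and 1.82% over 8 of 11 genes. Ppfia2, which encodes liprin-alpha-2, had 3.54% ± 0.20, 3.44% and 3.39%, above each of the 9 genes themselves. The active-zone gene Erc1 had 3.35% ± 0.42, whereas its paralogue Erc2 had 1.79% over 86 bins. Trio, encoding a guanine nucleotide exchange factor that binds LAR, had 2.26% ± 0.16, and Ppfibp2, a liprin-beta gene, was the lowest with 1.40%. Ppfia1, another liprin-alpha gene, had 2.19%, 1.76% and 1.93% over 9 bins, so the DDD-seq control was the highest of the 3 libraries. It differed from that control by -0.43 ± 0.16 points with sleep deprivation and by -0.25 ± 0.084 by ACE-seq. Of the 8 genes, 1 was at least 1.1-fold higher and 1 lower after sleep deprivation, beside 15.8% and 16.9% of all genes of at least 5 bins.

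All 5 contactin genes listed as ligands of PTPRG and PTPRZ had at least 5 bins, with a median of 2.16% in the DDD-seq control. Cntn1 was the highest with 3.11% ± 0.31, followed by Cntn6 with 3.02% ± 0.19 and Cntn4 with 2.16% ± 0.097. Cntn5 and Cntn3 had 1.61% and 1.59%. At least 1.5 times the flanks was reached by 3, 2 and 3 of the 5 genes, beside 25.6%, 24.9% and 27.1% of all genes of at least 20 bins, the size of each of the 5.

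**Figure D5:**
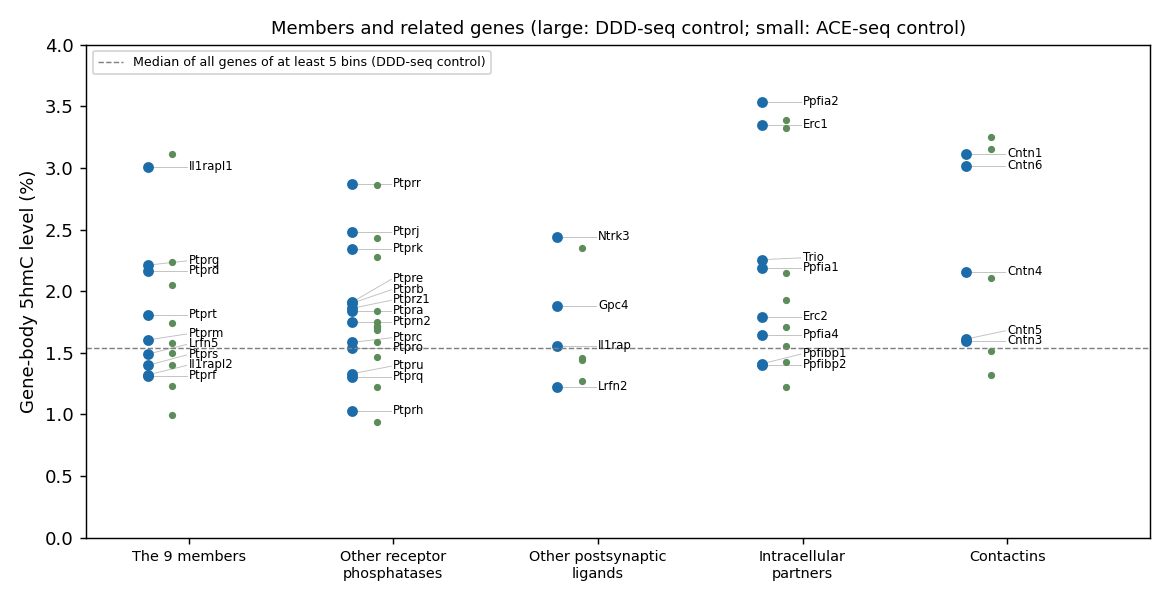
Gene-body 5hmC level (percent) of the 9 genes and of the 4 related lists, with 1 large point per gene for the DDD-seq control and 1 small point for the ACE-seq control; the dashed line is the median of all genes of at least 5 bins in the DDD-seq control (1.54%). Ppfia2 and Erc1 lie highest, at 3.54% and 3.35%, followed by Cntn1, Cntn6 and Il1rapl1.

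Finally, the gene of at least 20 bins most alike in level over the 3 libraries was found for each of the 9, by the Euclidean distance in percentage points among 1084 other genes. Cntn1 was the nearest to Il1rapl1, at a distance of 0.11 points, and Gria1, an AMPA receptor gene, the nearest to Il1rapl2, at 0.014. Ssbp2 was nearest to Ptprd (0.057), Lrba to Ptprg (0.033), Kcnk2 to Ptprt (0.031), Nav1 to Ptprm (0.028), Snx29 to Lrfn5 (0.038), Trp63 to Ptprs (0.031) and Egflam to Ptprf (0.085). With 3 libraries that resemble each other, the distance reflects the overall level of a gene and little else.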

How the data were processed

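5hmC was profiled in 3 cerebellum libraries, 1 per group. The authors deposited a fraction (0 to 1) per 10 kb bin and library; it was multiplied by 100. Trimmomatic and Bismark were used, per the submitters' processing notes, and sequence quality was read with FastQC. How bins were filtered for coverage, which cytosine contexts were read and how the fraction was averaged are not given in the sources used here. Although these notes name hg19, the bins lie on mouse chromosomes and were read as GRCm38, the build of the RefSeq gene table (GRCm38.p6). Unconverted cytosines add to every level.

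The 262974 bins with a value in all 3 libraries were used. A gene's level is the mean over bins overlapping its body by any base; flanks are 100 kb on each side of these bins. Differences are means over paired bins. The background is all protein-coding genes of at least 5 bins, of which 6664 were found; folds and ratios are compared with thresholds of 1.1 and 1.5. No test was possible with 1 library per group. The calculation of the difference of paired bins was run on simulated data with known changes. This checks the arithmetic, not whether differences as small as those reported here can be told from noise. Python 3.11.15, numpy 2.4.6, pandas 2.3.3 and matplotlib 3.10.9 were used. All 9 genes are named, as is from each list the highest, the lowest and the genes of at least 20 bins; other genes were named after their values were seen. The members and lists were chosen with earlier results of these data known. Alternatives covered the summary over bins, the bins counted, values of 0, weighting, flank width and scaling.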

Additional observations from a re-analysis of the deposited data

How the results depend on the processing

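No paired analysis was possible because each group has 1 library. Of 315 values of single genes under other settings, 304 stayed within the 95% limits that the SE over bins gives and 11 moved further. Of 43 counts, 38 stayed within 1.5 times, but a count can stay while the genes in it change. With flanks of 200 kb, 1 gene (Il1rapl1) in place of 3 reached 1.5 times its flanks in the DDD-seq control and 1 in place of 2 in the sleep-deprived library; Ptprg then stood at 1.45 and 1.48. With medians over bins, 2 genes were lower by 1.1-fold in the sleep-deprived library, Ptprf and Lrfn5 (0.903 and 0.857 times the control). With bins wholly inside the gene, 1 gene (Ptprf, 0.883 times) was lower there, and 1 in place of 2 was lower by ACE-seq, again Ptprf. The cause was not tested. The sign held in every setting for 7 of 9 sleep-deprived minus control differences, not for Ptprs and Ptprt, and for 6 of 9 ACE-seq minus DDD-seq differences, not for Ptprm, Il1rapl1 and Lrfn5. With medians, Ptprd fell to 1.76%, 1.77% and 1.72%, and Il1rapl1 to 2.69%, 2.89% and 2.73%. Without values of 0, Il1rapl2 had 1.50% in the DDD-seq control. With flanks of 50 kb, the ratio of Il1rapl2 there was 2.05 in place of 1.23. It then passed 1.5 beside Il1rapl1 (2.29), while Ptprg (1.49) and Ptprt (1.43) no longer did. With genes of at least 20 bins, chosen after seeing the data, 2.57% and 12.9% of genes were higher and lower by ACE-seq. Depth is unknown, so no value has a counting error.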
